A study of Homo sapiens with 9 samples.

Results

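A group of 89 genes, of 62700 in the count table, was silent in 293T cells that received an empty vector and was expressed at a similar low level when the cells received either of 2 CIC fusion proteins. Members were chosen by their measured values. They had 3 or fewer counts in each of the 3 empty vector libraries and a mean of at least 0.5 CPM with each fusion, CPM being a gene's count per 1000000 counts of its library. The ratio of the CIC::NUTM1 mean to the CIC::DUX4 mean lay between 0.5 and 2. Genes of several families were left out by symbol (the fused genes themselves and symbols beginning SPRY, KRT, KCN, HOX, COL, MMP, SHC, SCNN1, FGF or WNT). All 3 comparisons between the groups entered this choice, so the members' levels and differences are a description and carry no test.

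PolyA-selected RNA was sequenced from 293T, a transformed human embryonic kidney cell line that takes up plasmids readily, in 3 groups of 3 libraries. One group received a plasmid without insert (empty vector), one a plasmid for HA-CIC(ex20)::NUTM1(ex6) and one a plasmid for HA-CIC::DUX4, both fusions carrying an HA tag. Plasmids were delivered to 300000 cells with Fugene 6 and harvested about 48 hours later, with replicates transfected on separate days. All groups thus share the cell line, the transfection and the serum-containing medium, and the fusions were overexpressed from plasmids in a single line, so the groups model neither a fusion expressed from its own locus nor a tumour cell. Library totals ran from 16970771 to 33655445 counts, and 3 counts correspond to 0.0891 to 0.177 CPM. No check of the labels by the levels of CIC, NUTM1 and DUX4 was made, as these were not analysed here. The 10 embryonic kidney markers all passed the filter on low counts, and their summed level was 214 to 228 CPM in the empty vector libraries, although 1 of them had 3 or fewer counts in each of these.

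CIC (capicua) is a DNA-binding repressor that holds down genes induced by receptor tyrosine kinase and ERK signalling, such as the ETV1, ETV4 and ETV5 factors and the DUSP and SPRY feedback inhibitors, and ERK signalling relieves this repression. In sarcomas CIC is found joined to the transactivating end of DUX4 or to NUTM1, a protein that binds the acetyltransferase p300. The joined proteins activate genes that CIC would repress. CIC recognises an octamer of the form TGAATGAA or TGAATGGA, and AP-1, a dimer of FOS and JUN proteins, recognises TGANTCA.

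Promoter windows, from 250 bases before to 50 bases after the annotated start, were taken from RefSeq (GRCh38.p14) and were matched by symbol for 51 of the 89 members. The windows were searched on both strands for the CIC octamer as TGAATGAA, TCAATGAA, TGAATGGA or TCAATGGA, and for TGANTCA. Neither motif contains the other, and no match of one overlapped a match of the other in a member. The octamer was present in 5 members, CHRM5, PRAMEF20, IL1A, C1orf232 and SLC2A5. The windows of CHRM5, PRAMEF20, IL1A and C1orf232 are printed here in part, with those of ABCB11 and SCEL, the 2 members with TGANTCA that had the highest mean CPM, without correction for length. Sequences run 5′ to 3′ on the strand of the gene, with each match in capitals. They come from chr15:33968247-33968506 on the plus strand for CHRM5, chr1:13410200-13410449 on the plus strand for PRAMEF20, chr2:112784494-112784743 on the minus strand for IL1A. The others come from chr1:26168949-26169083 on the minus strand for C1orf232, chr2:169031325-169031574 on the minus strand for ABCB11 and chr13:77535456-77535705 on the plus strand for SCEL.
CHRM5: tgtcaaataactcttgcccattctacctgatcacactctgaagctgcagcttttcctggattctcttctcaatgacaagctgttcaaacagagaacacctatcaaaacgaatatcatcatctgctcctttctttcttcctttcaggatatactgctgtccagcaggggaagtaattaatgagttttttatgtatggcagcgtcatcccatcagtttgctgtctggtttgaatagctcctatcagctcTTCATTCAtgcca
PRAMEF20: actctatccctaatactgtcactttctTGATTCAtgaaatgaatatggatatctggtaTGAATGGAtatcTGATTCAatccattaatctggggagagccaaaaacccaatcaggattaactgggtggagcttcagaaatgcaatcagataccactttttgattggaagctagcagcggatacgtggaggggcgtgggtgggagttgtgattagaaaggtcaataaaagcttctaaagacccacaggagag
IL1A: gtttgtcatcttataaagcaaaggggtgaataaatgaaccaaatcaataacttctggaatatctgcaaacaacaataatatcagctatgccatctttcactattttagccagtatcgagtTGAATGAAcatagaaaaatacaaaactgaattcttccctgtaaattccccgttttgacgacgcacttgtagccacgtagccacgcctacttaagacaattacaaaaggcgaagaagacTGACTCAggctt
C1orf232: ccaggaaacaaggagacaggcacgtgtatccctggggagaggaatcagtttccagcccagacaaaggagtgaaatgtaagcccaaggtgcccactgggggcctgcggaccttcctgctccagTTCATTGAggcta
ABCB11: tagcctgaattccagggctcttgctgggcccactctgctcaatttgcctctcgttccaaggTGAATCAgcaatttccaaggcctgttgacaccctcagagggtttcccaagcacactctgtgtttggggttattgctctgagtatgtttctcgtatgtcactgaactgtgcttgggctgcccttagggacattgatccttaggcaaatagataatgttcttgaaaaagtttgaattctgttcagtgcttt
SCEL: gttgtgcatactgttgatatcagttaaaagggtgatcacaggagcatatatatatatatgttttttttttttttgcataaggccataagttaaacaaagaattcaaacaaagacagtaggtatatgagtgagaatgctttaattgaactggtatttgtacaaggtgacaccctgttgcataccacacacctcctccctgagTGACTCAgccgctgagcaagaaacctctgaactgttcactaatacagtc

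With the annotated start as position 0, the octamer began at -3 in CHRM5, which covers the start itself, at -192 in PRAMEF20, at -130 in IL1A, at 3 in C1orf232 and at 33 in SLC2A5. In PRAMEF20 it lay between 2 TGATTCA matches at -223 and -180, and IL1A carried TGACTCA at -12 and TGAGTCA at 39 besides its octamer. ABCB11 had TGAATCA at -189 and SCEL had TGACTCA at -49. The octamer was found in 9.80% of the 51 members with a window and in 8.48% of 625 other genes called higher with both fusions. It was found in 4.52% of 2984 genes that were silent with empty vector but not expressed with both fusions, and 3.77% of all 35116 promoters of the same length. With only the 250 bases before the start it was found in 2 members (3.92%), the same share as in the other silent genes (3.92%), against 7.36% of the other raised genes and 3.18% of all promoters. TGANTCA was found in 8 members (15.7%), against 6.24% of the other genes called higher, 11.5% of the other silent genes and 7.71% of all promoters. The ETS letters CCGGAAGT and the CRE letters TGACGTCA were found in no member window, against 1.17% and 0.938% of the other silent genes and 4.14% and 1.85% of all promoters. The TATA letters TATAAA were found in 6 members (11.8%), against 18.0% of the other silent genes and 11.5% of all promoters. Median GC content was 53.0% in member windows, 52.0% in those of the other silent genes, 64.0% in those of the other raised genes and 58.7% over all promoters. A match is a stretch of letters and not a measured binding site, and a window without a match says only that these letters are not in it.

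Of the 62700 genes, 40206 had 3 or fewer counts in each empty vector library, and 11375 of those had at least 1 count in a fusion library. Only 126 reached a mean of 0.5 CPM with both fusions, while 103 reached it with CIC::NUTM1 alone and 114 with CIC::DUX4 alone. The ratio window removed 17 genes at least 2 times as high with CIC::NUTM1 and 14 at least 2 times as high with CIC::DUX4, and the excluded symbols removed 6 more (SPRY4, FGF7, COL15A1, COL28A1, KCNJ15 and KCNJ18). Among the 89 members the median ratio of CIC::NUTM1 to CIC::DUX4 was 1.15, with a CIC::NUTM1 mean above the CIC::DUX4 mean in 52, below it in 37, and 30 with a ratio from 0.8 to 1.25. At the edges, TRDN had a ratio of 1.93 just inside the window and TTC29 one of 2.0006 just outside, and CES1P2 one of 0.513 inside and MISP one of 0.476 outside. The lower of the 2 means was 0.504 CPM for RNF148 inside and 0.49998 CPM for LINC02732 outside. The limit of 3 counts was met exactly by 16 members, and 15 further genes with 4 counts passed everything else, among them HCRTR2, an orexin receptor gene, at 5.44 CPM (CIC::NUTM1) and 7.05 CPM (CIC::DUX4).

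**Figure D1:**
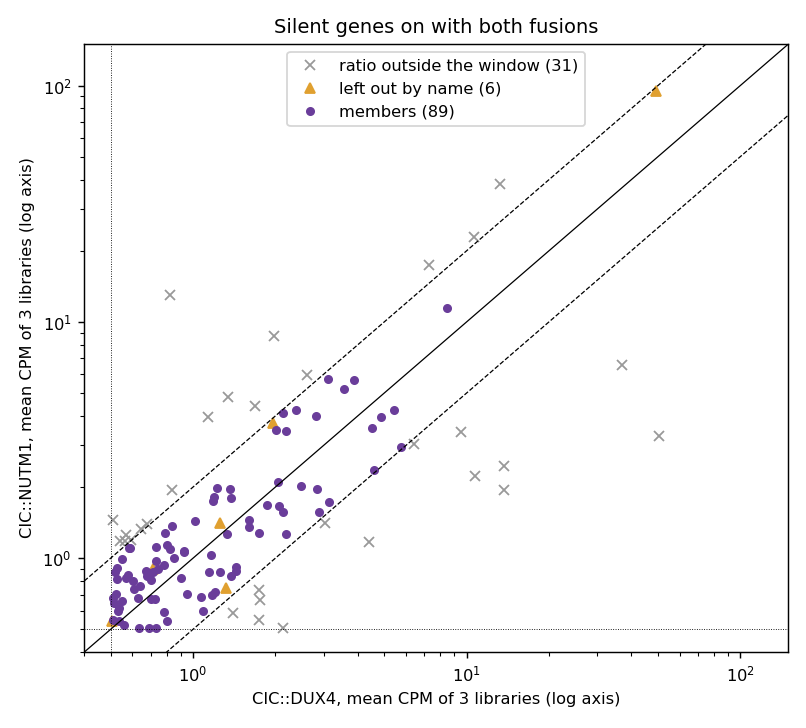
Mean CPM with CIC::NUTM1 (vertical, log axis) against mean CPM with CIC::DUX4 (horizontal, log axis) for the 126 genes that were silent with empty vector and reached 0.5 CPM with both fusions (solid line: equal means, dashed lines: ratios of 2 and 0.5, dotted lines: 0.5 CPM). The 89 members (circles) crowd towards the lower left corner, where 36 lie under 1 CPM with both fusions.

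The members' summed level was 3.41, 1.93 and 1.68 CPM in the 3 empty vector libraries, 168, 108 and 149 CPM with CIC::NUTM1 and 170, 120 and 113 CPM with CIC::DUX4. All 6 fusion libraries lay far above all 3 empty vector libraries, and the 2 fusion groups overlapped. Most members remained rare even so: 34 reached 1 CPM with both fusions, 16 reached 2 CPM with both, and 36 stayed under 1 CPM with both. In RNA of a whole culture, a few transfected cells with much of a transcript and many cells with little of it cannot be told apart. With empty vector, 36 members had no count at all in the 3 libraries together, 34 had 1 to 3 counts and 19 had more, up to 8. Folds are therefore given against the pooled empty vector libraries: where these held 0 counts, as a lower bound against 3 counts over the group (0.0395 CPM), and otherwise as a ratio with an exact 95% interval. These intervals and bounds account for counting error alone, because PCR copies were not removed by molecular identifiers and reads need not be separate molecules.

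The filter on low counts kept 88 members for the fit across all genes and left out SLC4A1, which had few counts. With CIC::NUTM1 against empty vector, 87 of the 88 were called higher at an adjusted p under 0.05 (edgeR's quasi-likelihood test, Benjamini-Hochberg), where 11.5% of all 17576 genes tested were called higher. With CIC::DUX4, 86 of 88 were called, where 6.96% of all genes were, or 1224 genes (805 without CIC::DUX4 replicate 1). SLC26A8 was not called in either comparison, with edgeR adjusted p of 0.0870 and 0.0985, and ALLC was not called with CIC::DUX4, with an edgeR adjusted p of 0.0501. The 3 CIC::NUTM1 libraries all lay above the 3 empty vector libraries for 88 of the 89 members and the 3 CIC::DUX4 libraries for 86, where 15.4% and 14.7% of the genes tested showed such a gap. The choice of members used these contrasts, and nothing is read from these counts.

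Counting by annotation (GENCODE 29), 65 members (73.0%) were protein-coding, 8 lincRNAs, 7 antisense RNAs and 5 of other non-coding or pseudogene types, and 4 were not in that annotation. The protein-coding share was 23.8% among the 11249 other genes that were silent with empty vector and had a count with a fusion, and 78.7% among all genes tested. By known function the coding members spread over many tissues. There were 13 neural and sensory genes, 11 immune genes, 9 transporters and kidney genes, 6 genes of epithelial barriers and 6 of striated muscle. The rest were 5 metabolic enzymes, 4 germ line genes, 3 transcription factors, 2 matrix genes and 6 others. These groupings were made from the members' names after the members were known.

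**Figure D2:**
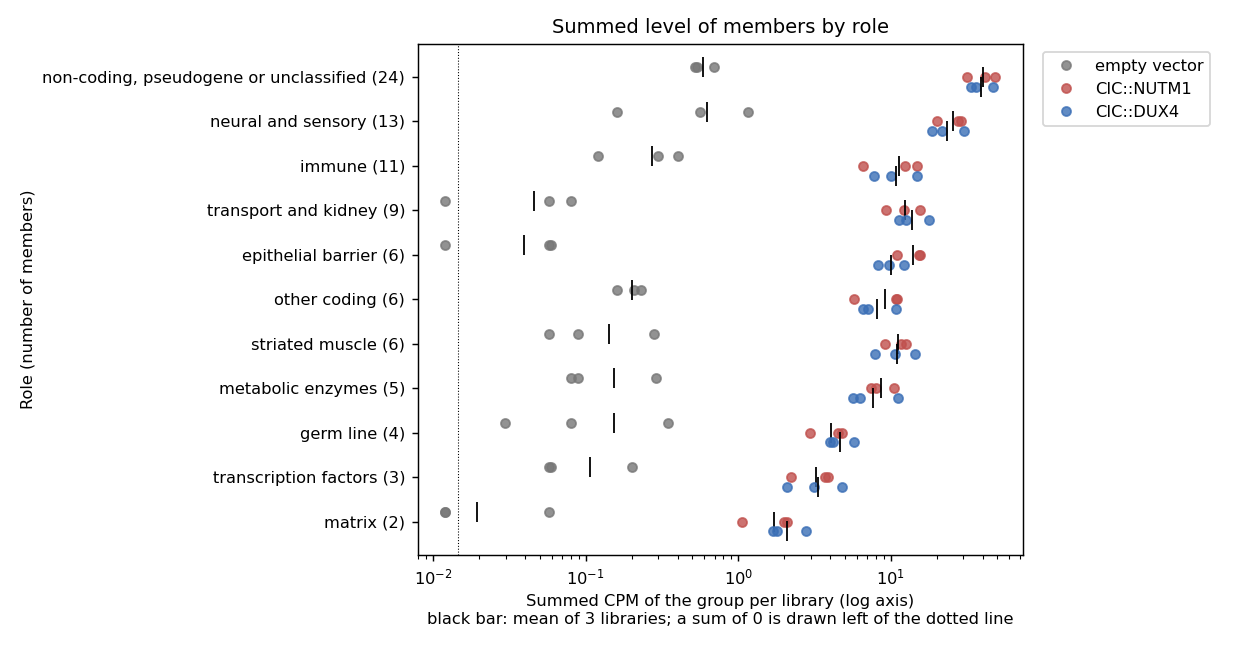
Summed CPM per library (horizontal, log axis) of the members in each role, for empty vector (grey), CIC::NUTM1 (red) and CIC::DUX4 (blue), with libraries as points, the mean of 3 as a black bar and a sum of 0 left of the dotted line. In every role the 6 fusion libraries lie above the 3 empty vector libraries, and the ranges of the 2 fusions overlap.

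Among transporters, the highest member was ABCB11 (ENSG00000073734), the bile salt export pump of hepatocytes. It had 0 counts in all 3 empty vector libraries and reached 5.49, 2.64 and 4.59 CPM in the CIC::NUTM1 libraries and 7.02, 4.18 and 5.07 CPM in the CIC::DUX4 libraries. Its means were 4.24 ± 1.45 CPM (CIC::NUTM1) and 5.42 ± 1.45 CPM (CIC::DUX4) (SD, n = 3). Both fusion groups overlapped, with the CIC::NUTM1 replicate 2 library lowest and the CIC::DUX4 replicate 1 library highest. The level was at least 102-fold with CIC::NUTM1 and at least 141-fold with CIC::DUX4 above the floor. NPHS1, which encodes nephrin of the podocyte slit diaphragm, gave 1, 0 and 0 counts with empty vector, 1.87, 1.17 and 0.757 CPM with CIC::NUTM1 and 2.16, 1.51 and 2.89 CPM with CIC::DUX4. SLC12A1, the sodium-potassium-chloride cotransporter of the thick ascending limb, had 0 counts with empty vector and 1.99, 1.55 and 1.92 CPM with CIC::NUTM1 against 1.58, 0.827 and 1.18 CPM with CIC::DUX4. Its CIC::NUTM1 libraries were mostly the higher ones, while for NPHS1 the CIC::DUX4 mean was higher, at a ratio of 0.579. A pair of proteins of acid-base transport, ATP6V0A4, a proton pump subunit of kidney intercalated cells, and SLC4A1, the band 3 anion exchanger of red cells and intercalated cells, were also members. ATP6V0A4 had means of 0.869 ± 0.220 CPM (CIC::NUTM1) and 1.25 ± 0.684 CPM (CIC::DUX4). SLC4A1 had 1.17, 0.151 and 0.202 CPM with CIC::NUTM1 and 1.35, 0.438 and 0.412 CPM with CIC::DUX4, so that in each group the replicate 1 library carried most of the level. SLC9A4 (a sodium/proton exchanger), SLC2A5 (the fructose transporter), SLC17A4 (an intestinal phosphate and anion transporter) and SLC5A9 (a sodium-coupled sugar transporter) had means of 0.530 to 1.36 CPM.

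Of the epithelial barrier genes, AGR2 (ENSG00000106541), a disulfide isomerase of the endoplasmic reticulum needed for mucin folding, was the highest. It had 0 counts with empty vector, 6.25, 4.72 and 6.16 CPM with CIC::NUTM1 and 4.13, 2.77 and 2.47 CPM with CIC::DUX4, and every CIC::NUTM1 library lay above every CIC::DUX4 library. Its level was at least 141-fold with CIC::NUTM1 and at least 82.1-fold with CIC::DUX4 above the floor. SCEL, encoding sciellin of the cornified envelope, showed the same order, with 0 counts with empty vector, 5.72, 3.06 and 3.94 CPM with CIC::NUTM1 and 2.97, 1.90 and 2.24 CPM with CIC::DUX4. MUC16, the very large mucin known as CA125, was the one barrier gene higher by mean with CIC::DUX4: it had 0 counts with empty vector, 0.818, 1.02 and 2.88 CPM with CIC::NUTM1 and 3.09, 1.99 and 3.59 CPM with CIC::DUX4. The CIC::NUTM1 replicate 3 library reached into the CIC::DUX4 range, so the groups overlapped for MUC16. CASP14, the keratinocyte caspase, DSG1, a desmosomal cadherin of skin, and TSPAN8, a tetraspanin of gut epithelium, had means of 0.528 to 0.911 CPM. A list of 10 general epithelial markers (EPCAM, CDH1, CLDN4 and others) held no member, and its summed level was 8.71 to 10.2 CPM with empty vector, 6.81 to 10.0 CPM with CIC::NUTM1 and 8.70 to 25.7 CPM with CIC::DUX4. None of the 6 tested was called in either comparison with empty vector (edgeR). The 25.7 CPM belong to CIC::DUX4 replicate 1 alone, against 8.70 and 10.96 CPM in replicates 2 and 3. EPCAM, an adhesion protein of epithelia, had 5.36, 0.778 and 2.12 CPM in these 3 libraries, CDH1 (E-cadherin) 8.72, 4.23 and 4.01 CPM, and the splicing factor gene ESRP1 2.78, 0 and 0.118 CPM. The part of these markers in the members' levels was not tested.

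The neural and sensory genes were the largest coding group, with a summed level of 25.5 ± 4.81 CPM (CIC::NUTM1) and 23.6 ± 5.87 CPM (CIC::DUX4), compared with 0.627 ± 0.501 CPM (empty vector) (SD, n = 3). CHRM5 (ENSG00000184984), a muscarinic acetylcholine receptor whose promoter octamer is printed above, had 0, 1 and 0 counts with empty vector, 4.15, 2.19 and 5.55 CPM with CIC::NUTM1 and 6.21, 4.33 and 4.07 CPM with CIC::DUX4. The single empty vector count leaves its fold with a wide interval: 286-fold with CIC::NUTM1 (95% interval 50.9 to 11346) and 382-fold with CIC::DUX4 (68.0 to 15117). SCG2, the granule protein secretogranin II, had 1, 2 and 0 counts with empty vector, 6.89, 3.40 and 5.25 CPM with CIC::NUTM1 and 4.32, 4.23 and 2.12 CPM with CIC::DUX4. Its level was 124-fold with CIC::NUTM1 (95% interval 42.2 to 607) and 93.7-fold with CIC::DUX4 (31.7 to 458) higher. The lowest of its 6 fusion libraries was CIC::DUX4 replicate 3, and the fusion groups overlapped. RTBDN, a riboflavin-binding protein of the retina, had means of 3.57 ± 0.900 CPM (CIC::NUTM1) and 4.52 ± 0.877 CPM (CIC::DUX4). NINJ2, an adhesion protein induced in injured nerve, had means of 3.45 ± 0.397 CPM (CIC::NUTM1) and 2.19 ± 0.919 CPM (CIC::DUX4). Both had 6 counts over the empty vector libraries, more than most members. OTOF, encoding otoferlin of the inner hair cell synapse, had means of 1.36 ± 0.379 CPM (CIC::NUTM1) and 1.61 ± 0.270 CPM (CIC::DUX4). SYNDIG1L, a synapse-associated membrane protein, had means of 1.98 ± 0.970 CPM (CIC::NUTM1) and 1.22 ± 0.416 CPM (CIC::DUX4).

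DCX, encoding doublecortin of migrating neurons, was the one member in a list of 15 neuronal markers, with 3, 0 and 0 counts with empty vector, 0.993, 0.793 and 0.858 CPM with CIC::NUTM1 and 1.39, 2.09 and 0.825 CPM with CIC::DUX4. In that list, 10 genes besides DCX were tested, 4 were called higher and 1 lower with CIC::NUTM1, and 1 was called higher with CIC::DUX4 (edgeR). Over all 17576 genes tested, 11.5% were called higher with CIC::NUTM1 and 6.96% with CIC::DUX4, and 673 genes were called lower with CIC::NUTM1. The median log2 fold changes of the 10 genes were 0.0038 and 0.70, against -0.0009 and -0.0015 over all genes. The 4 called higher with CIC::NUTM1 were MAP2, GAD2, SLC32A1 and ELAVL4, and MAP2 was the one called with CIC::DUX4. SLC32A1 had 0, 2 and 0 counts with empty vector. All 4 passed the filter on low counts only with the fusion libraries, so nothing is read from these calls or from the medians. The summed level of all 15 was 47.1 to 50.7 CPM with empty vector, 44.1 to 47.6 CPM with CIC::NUTM1 and 53.5 to 57.6 CPM with CIC::DUX4. The part of these markers in the members' levels was not tested. Other neural members, NSG2 and SEZ6L of neuronal membranes, MOBP of myelin, the bombesin receptor BRS3 and the calcium buffer CALB1, had means of 0.628 to 1.28 CPM.

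Striated muscle genes formed a set of 6. Of the regulators of the muscle programme, MYOG and MYF5 had 0 counts in all 9 libraries (an upper limit of 0.0891 to 0.177 CPM per library). MYOD1 was present in all 9, at 0.598 ± 0.405 CPM (empty vector), 0.344 ± 0.229 CPM (CIC::NUTM1) and 0.513 ± 0.0672 CPM (CIC::DUX4), and was called in neither comparison with empty vector by edgeR. TRDN, encoding triadin of the sarcoplasmic reticulum junction, had 0, 1 and 3 counts with empty vector, 4.79, 3.10 and 4.44 CPM with CIC::NUTM1 and 2.70, 2.04 and 1.65 CPM with CIC::DUX4, and the 2 fusion groups did not overlap. MYO18B, an unconventional myosin of the sarcomere, had the opposite order, with 0 counts, 3.21, 1.55 and 2.32 CPM and 6.02, 4.18 and 3.59 CPM, again without overlap. These 2 muscle genes thus sit near the opposite edges of the ratio window, at 1.93 and 0.513. MYBPC2 (fast myosin-binding protein C), MYPN (myopalladin), MB (myoglobin) and UNC45B (a myosin chaperone) had means of 0.820 to 1.74 CPM. MB had 0, 1 and 0 counts with empty vector, 0.876, 1.36 and 0.858 CPM with CIC::NUTM1 and 1.5, 0.973 and 1.00 CPM with CIC::DUX4. The summed level of 10 skeletal muscle markers, none of them a member, was 22.3 to 24.1 CPM with empty vector, 26.3 to 29.4 CPM with CIC::NUTM1 and 22.1 to 26.9 CPM with CIC::DUX4. TNNT1, a slow troponin gene, made up most of this sum. TTN, which encodes the sarcomere protein titin, was the one called higher of the 5 genes tested in this list, with both fusions. Among all genes tested, 11.5% were called higher with CIC::NUTM1 and 6.96% with CIC::DUX4. TTN had 0.420 ± 0.108 CPM (empty vector), 2.52 ± 0.617 CPM (CIC::NUTM1) and 2.52 ± 0.496 CPM (CIC::DUX4) (SD, n = 3). With 7, 18 and 8 empty vector counts, TTN passed the filter on low counts only with the fusion libraries, so nothing is read from its calls. The part of these markers in the muscle members' levels was not tested.

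Immune genes had a summed level of 11.3 ± 4.25 CPM (CIC::NUTM1) and 10.9 ± 3.64 CPM (CIC::DUX4), compared with 0.274 ± 0.144 CPM (empty vector) (SD, n = 3). PRTN3, the neutrophil serine protease proteinase 3, led them with 0, 2 and 0 counts with empty vector, 2.22, 1.66 and 2.17 CPM with CIC::NUTM1 and 3.05, 1.95 and 2.47 CPM with CIC::DUX4. PTPN22, a phosphatase that restrains lymphocyte receptor signalling, had 3, 1 and 0 counts with empty vector, 2.51, 1.21 and 2.17 CPM with CIC::NUTM1 and 2.16, 1.41 and 0.530 CPM with CIC::DUX4, with CIC::DUX4 replicate 3 the lowest. IL1A, the cytokine interleukin 1 alpha whose promoter carries an octamer and 2 AP-1 matches, had 0 counts with empty vector, 0.876, 0.264 and 1.01 CPM with CIC::NUTM1 and 1.66, 1.12 and 0.825 CPM with CIC::DUX4. The fusion groups overlapped for all 3 genes. ITGAM, the CD11b integrin chain of myeloid cells, had 1, 1 and 1 counts with empty vector, 1.05, 0.189 and 1.31 CPM with CIC::NUTM1 and 0.810, 0.389 and 0.530 CPM with CIC::DUX4. Its call with CIC::DUX4 was lost without CIC::DUX4 replicate 1, empty vector replicate 2 or empty vector replicate 3. The leukocyte actin-binding protein LSP1, the receptors TARM1 and TLR10, the NOD-like NLRC3, the interferon-induced GTPase GBP1 and the exchange factor DOCK10 had means of 0.514 to 1.12 CPM.

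Among 12 blood cell markers, 5 passed the filter on low counts. One of them is ITGAM, whose rise the choice of members fixed. Of the other 4, edgeR called 3 higher with CIC::NUTM1 (PTPRC, CD14 and SPI1) and 2 with CIC::DUX4 (PTPRC and SPI1). The shares called higher over all genes tested were 11.5% and 6.96%. With empty vector, PTPRC had 0, 2 and 0 counts, CD14 had 1, 10 and 2, and SPI1 had 4, 7 and 0. All 3 passed the filter only through fusion libraries where they are high, so nothing is read from these calls. The summed level of this list was 2.02 to 3.73 CPM with empty vector, 8.16 to 12.7 CPM with CIC::NUTM1 and 6.95 to 10.7 CPM with CIC::DUX4. SPI1, the PU.1 factor of myeloid and B cells and no member because of its empty vector counts, had 0.146 ± 0.127 CPM (empty vector), 3.36 ± 2.03 CPM (CIC::NUTM1) and 5.15 ± 1.28 CPM (CIC::DUX4) (SD, n = 3). CD3D of T cells and MS4A1 of B cells had 0 counts in all 9 libraries. The part of these markers in the immune members' levels was not tested.

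Of the metabolic enzymes, RNLS, the flavoprotein renalase, had 2, 2 and 2 counts with empty vector, 4.50, 2.57 and 3.38 CPM with CIC::NUTM1 and 2.04, 2.09 and 1.89 CPM with CIC::DUX4. All CIC::NUTM1 libraries lay above all CIC::DUX4 libraries for RNLS. GLYATL1, an acyltransferase of liver and kidney, had 0, 1 and 0 counts with empty vector and means of 1.66 ± 0.263 CPM (CIC::NUTM1) and 2.05 ± 1.00 CPM (CIC::DUX4). CYP4F12, a fatty acid hydroxylase, had 0 counts and means of 1.57 ± 0.870 CPM (CIC::NUTM1) and 2.13 ± 1.23 CPM (CIC::DUX4). HSD11B1, which regenerates cortisol from cortisone, had 0 counts with empty vector, 1.81, 1.32 and 1.16 CPM with CIC::NUTM1 and 1.47, 1.22 and 0.354 CPM with CIC::DUX4. ALLC, an allantoicase homologue, was close to the lower limit with both fusions, at 0.547 ± 0.223 CPM (CIC::NUTM1) and 0.508 ± 0.425 CPM (CIC::DUX4).

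Of the 3 transcription factors, TBX4, a T-box factor of hindlimb and lung, had 0, 2 and 2 counts with empty vector, 2.39, 1.28 and 1.72 CPM with CIC::NUTM1 and 1.89, 1.07 and 1.18 CPM with CIC::DUX4. HNF4A, a nuclear receptor of liver and kidney tubule, had 1, 0 and 3 counts, 0.993, 0.340 and 1.41 CPM and 2.08, 0.729 and 1.47 CPM in the same order. NEUROD4, a neurogenic bHLH factor, had 0 counts and means of 0.542 ± 0.0696 CPM (CIC::NUTM1) and 0.537 ± 0.284 CPM (CIC::DUX4). The fusion groups overlapped for each of the 3. In the germ line group, PRAMEF20 (ENSG00000204478) of the PRAME family had 0 counts with empty vector, 1.99, 1.66 and 2.22 CPM with CIC::NUTM1 and 3.09, 2.63 and 2.77 CPM with CIC::DUX4, without overlap between the fusions. PRAMEF genes lie in near-identical copies, so reads may have been split among them and the value is uncertain. PIWIL2, a PIWI protein that binds piRNAs, had 3, 0 and 2 counts, 1.17, 0.869 and 1.26 CPM and 0.733, 0.729 and 0.295 CPM. Its call with CIC::DUX4 was lost without CIC::DUX4 replicate 1 or 2 or empty vector replicate 2 or 3. SLC26A8, an anion transporter of sperm, had 2, 1 and 0 counts, 0.701, 0 and 0.858 CPM and 1.31, 0.243 and 0.118 CPM. RNF148, a testis RING finger gene, had means of 0.504 ± 0.121 CPM (CIC::NUTM1) and 0.688 ± 0.124 CPM (CIC::DUX4). RNF148 overlaps CADPS2 on the same strand, a gene called higher with both fusions by edgeR. CADPS2 had 28.2 ± 1.54 CPM (empty vector), 64.5 ± 6.75 CPM (CIC::NUTM1) and 70.9 ± 6.78 CPM (CIC::DUX4). The reads counted for RNF148 can therefore not be assigned to it with certainty. The 10 germ cell markers held no member, and their summed level was 139 to 154 CPM with empty vector, 138 to 152 CPM with CIC::NUTM1 and 147 to 157 CPM with CIC::DUX4. PRAME and MAGEA3, already at means of 98.9 and 47.9 CPM with empty vector, made up most of this sum. Only these 2 were tested, so the sum says little about the rarer markers. Of the matrix genes, MMRN1 (multimerin 1 of platelets and endothelium) had means of 0.872 ± 0.470 CPM (CIC::NUTM1) and 0.711 ± 0.154 CPM (CIC::DUX4). TGFBI, a secreted adhesion protein, had means of 0.836 ± 0.323 CPM (CIC::NUTM1) and 1.38 ± 0.519 CPM (CIC::DUX4). A list of 10 endothelium and fibroblast markers held no member, and its summed level was 5.49 to 6.15 CPM with empty vector, 13.1 to 16.99 CPM with CIC::NUTM1 and 8.66 to 17.7 CPM with CIC::DUX4. Of its 5 genes tested, 3 (KDR, DCN and LUM) were called higher with CIC::NUTM1 and 1 (LUM) with CIC::DUX4 by edgeR. Over all genes tested, 11.5% and 6.96% were called higher. The list's median log2 fold changes were 1.42 and 1.03, against -0.0009 and -0.0015 over all genes. KDR (9, 29 and 5 empty vector counts) and DCN (0, 4 and 0) passed the filter on low counts only with the fusion libraries. They are included in these counts and medians, so nothing is read from the counts and medians. The part of these markers in the members' levels was not tested. NWD1, one of the 6 other coding members, had 0 counts with empty vector, 5.84, 1.96 and 4.14 CPM with CIC::NUTM1 and 3.82, 2.53 and 2.12 CPM with CIC::DUX4.

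**Figure D3:**
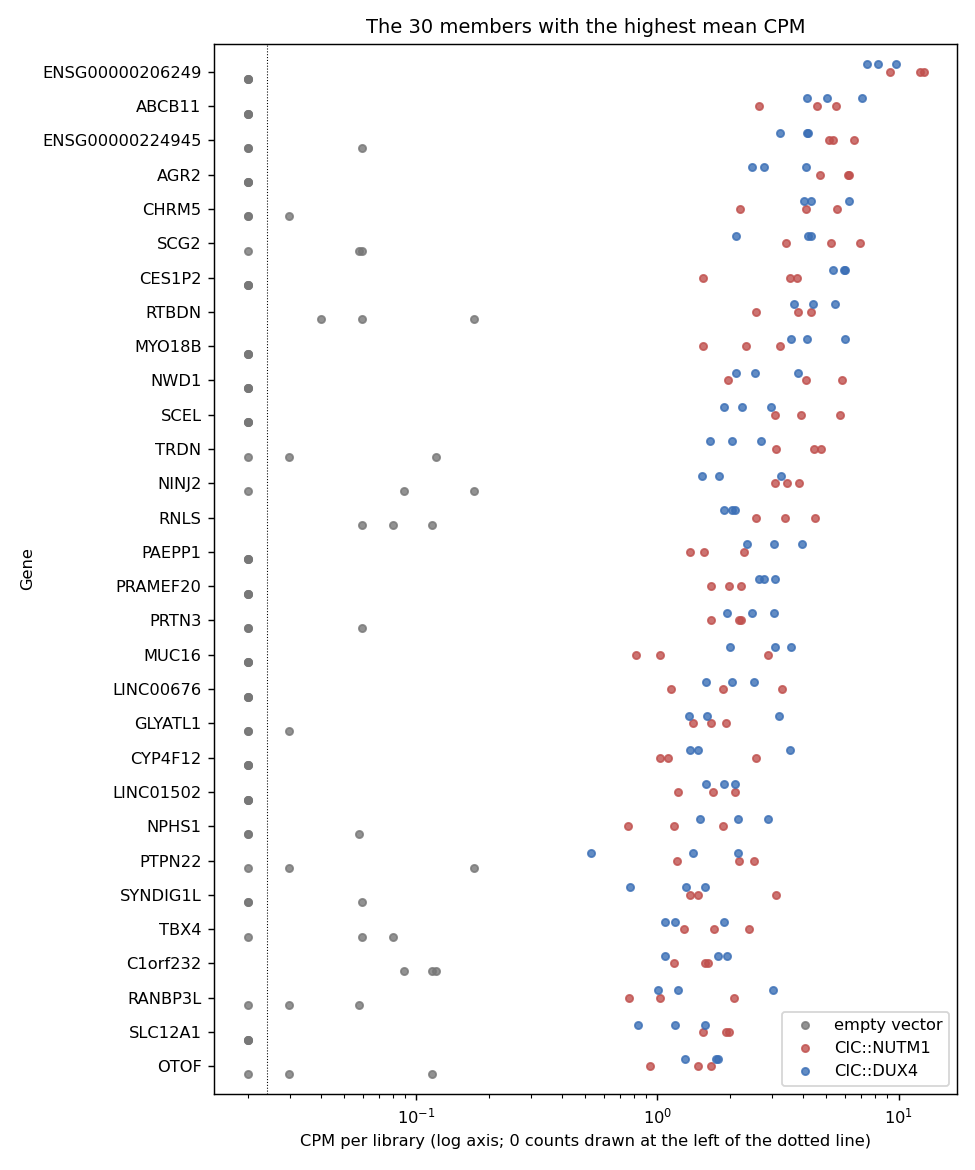
CPM in each library (horizontal, log axis) for the 30 members with the highest mean over the 6 fusion libraries, with empty vector in grey, CIC::NUTM1 in red and CIC::DUX4 in blue, and 0 counts drawn left of the dotted line. For all 30 the 6 fusion libraries lie above the 3 empty vector libraries, and for most the red and blue points overlap, AGR2, SCEL, TRDN and RNLS (red higher) and CES1P2, MYO18B, PAEPP1 and PRAMEF20 (blue higher) being among the exceptions.

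The 24 remaining members are non-coding RNAs, pseudogenes or unclassified, and they included the highest member of all. ENSG00000206249, at chr20:38288331-38326536 (GRCh38, GENCODE 29), had 0 counts with empty vector, 12.3, 9.26 and 12.7 CPM with CIC::NUTM1 and 9.76, 7.39 and 8.19 CPM with CIC::DUX4. Its level was at least 282-fold with CIC::NUTM1 and at least 217-fold with CIC::DUX4 above the floor. It overlaps BPI, which encodes a bactericidal protein of neutrophils, on the other strand. BPI had 0 counts (empty vector), 3.40 ± 1.55 CPM (CIC::NUTM1) and 9.55 ± 1.77 CPM (CIC::DUX4) (SD, n = 3). BPI, itself silent with empty vector, falls outside the ratio window, being higher with CIC::DUX4, whereas ENSG00000206249 was higher by mean with CIC::NUTM1. ENSG00000224945, at chr9:89088604-89109934, lies within SHC3 on the same strand. It had 0, 2 and 0 counts with empty vector, 6.54, 5.14 and 5.35 CPM with CIC::NUTM1 and 4.21, 3.21 and 4.18 CPM with CIC::DUX4, without overlap between the fusions. SHC3, a receptor adaptor gene of the CIC target list, had 0.271 ± 0.168 CPM (empty vector), 53.9 ± 10.2 CPM (CIC::NUTM1) and 40.7 ± 9.11 CPM (CIC::DUX4). Whether counting used the strand is not given in the sources used here, so reads of such overlapping pairs cannot be assigned with certainty.

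LINC01502 and PAEPP1, the latter a pseudogene of the glycodelin gene PAEP, lie 890 bases apart on the same strand, and both are members with 0 counts in all empty vector libraries. LINC01502 had 2.10, 1.70 and 1.21 CPM with CIC::NUTM1 and 1.89, 2.09 and 1.59 CPM with CIC::DUX4. PAEPP1 had 2.28, 1.36 and 1.56 CPM and 3.05, 3.99 and 2.36 CPM. CES1P2, a carboxylesterase pseudogene, had 0 counts with empty vector, 3.80, 1.55 and 3.53 CPM with CIC::NUTM1 and 6.02, 5.35 and 5.95 CPM with CIC::DUX4. It lies 52740 bases from CES1, the liver carboxylesterase gene, which had 0 counts (empty vector), 0.681 ± 0.211 CPM (CIC::NUTM1) and 0.450 ± 0.178 CPM (CIC::DUX4). As the 2 sequences are related, the split of reads between them is uncertain. LSP1 overlaps PRR33 on the other strand, which had 0 counts (empty vector), 0.665 ± 0.121 CPM (CIC::NUTM1) and 1.75 ± 0.645 CPM (CIC::DUX4). It lies 27295 bases from TNNT3, fast skeletal troponin T, which had 0.0534 ± 0.0926 CPM (empty vector), 2.89 ± 0.666 CPM (CIC::NUTM1) and 5.38 ± 0.695 CPM (CIC::DUX4). RPSAP52, antisense to HMGA2, had 1.05, 0.718 and 0.353 CPM with CIC::NUTM1 and 0.694, 0.875 and 0 CPM with CIC::DUX4. HMGA2, an oncofetal chromatin protein, had 124 ± 2.81 CPM (empty vector), 215 ± 9.75 CPM (CIC::NUTM1) and 149.5 ± 4.25 CPM (CIC::DUX4). RTBDN overlaps MAST1 on the other strand, at 18.4 ± 1.18 CPM (empty vector), 36.1 ± 2.08 CPM (CIC::NUTM1) and 42.0 ± 6.55 CPM (CIC::DUX4) for MAST1. ENSG00000232633 overlaps MCC in the same way, at 52.1 ± 5.12 CPM (empty vector), 289 ± 55.7 CPM (CIC::NUTM1) and 274 ± 63.2 CPM (CIC::DUX4) for MCC. Each of these neighbours was called higher with both fusions by edgeR, and the pairs were picked after their values were seen. MEG9, a non-coding RNA of the imprinted DLK1 to DIO3 locus, had 0 counts with empty vector and means of 0.874 ± 0.254 CPM (CIC::NUTM1) and 0.518 ± 0.240 CPM (CIC::DUX4).

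**Figure D4:**
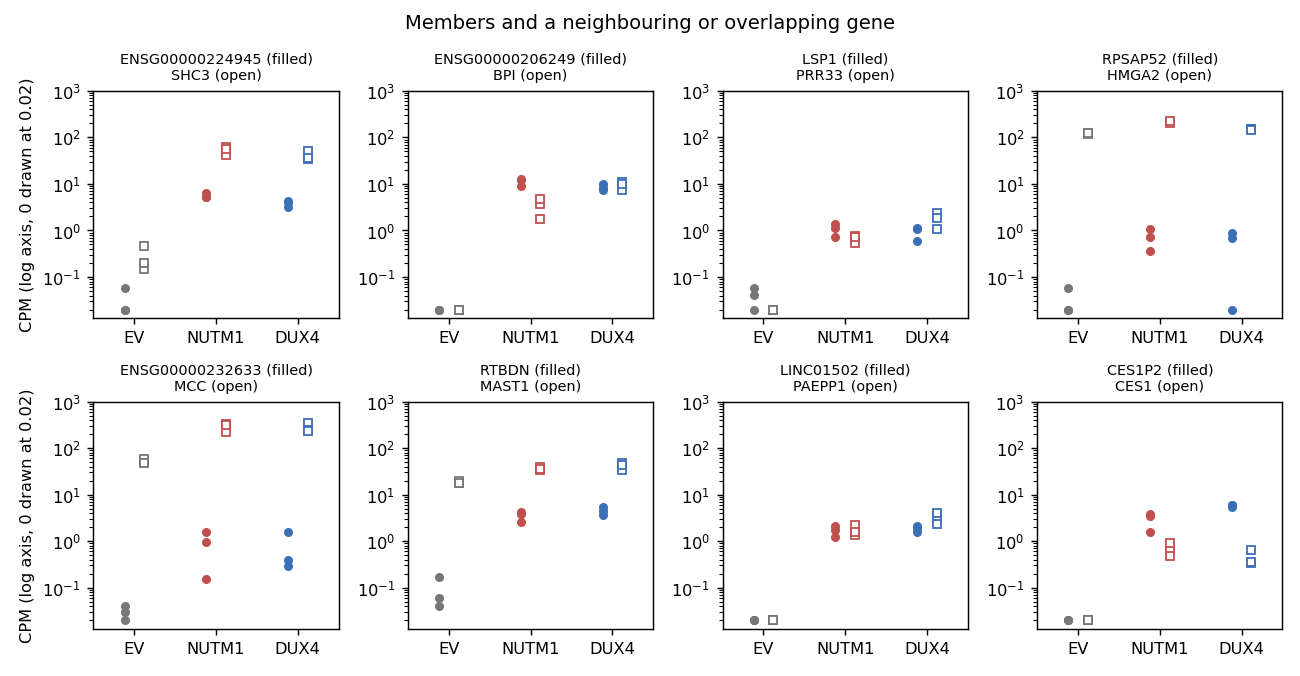
CPM per library (vertical, log axis, 0 drawn at 0.02) with empty vector (EV), CIC::NUTM1 and CIC::DUX4 for 8 members (filled circles) and an overlapping or nearby gene (open squares). BPI, PAEPP1 and CES1 were at 0 with empty vector like their partners, PRR33 was at 0 while its partner LSP1 was near 0, SHC3 was near 0, and HMGA2, MCC and MAST1 were already expressed.

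Positions were available for 85 members, of which 37 overlap an annotated gene on the other strand, 22 one on the same strand and 39 none. A gene called higher with both fusions lay within 100 kb, overlaps included, for 25 members (29.4%), against 19.8% of 830 other genes called higher with both, 14.0% of all genes tested and 13.3% of other silent genes with a fusion count. Without the members that overlap another member or a called gene, the share was 15 of 75. This was close to the 19.8% of the other genes called higher with both, and above the 14.0% and 13.3%. Overlaps were not removed from these comparison sets, so the shares are not fully comparable. Further such pairs are that TSPAN8 overlaps LGR5 and VEPH1 overlaps PTX3, CASP14 lies 26394 bases from the glutamate transporter gene SLC1A6, HSD11B1 72240 bases from the kinase gene CAMK1G and PRTN3 18983 bases from PLPPR3.

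Levels of different genes can be compared only per length, here as CPM per kb of exon in GENCODE 29, with the CIC::NUTM1 value first and the CIC::DUX4 value second. The highest of all was ENSG00000206249, at 14.2 and 10.5. The leading coding members were AGR2 at 2.01 and 1.10, C1orf232 at 1.91 and 2.10, SCG2 at 1.91 and 1.31 and PRTN3 at 1.76 and 2.17. C1orf232, with an octamer in its promoter window, was also the member with one of the 2 highest empty vector totals (8 counts). It had 1.58, 1.17 and 1.61 CPM with CIC::NUTM1 and 1.77, 1.07 and 1.94 CPM with CIC::DUX4. Its level was 13.5-fold with CIC::NUTM1 (95% interval 6.55 to 32.1) and 15.1-fold with CIC::DUX4 (7.38 to 35.9) higher.

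The members' levels differed between replicate libraries in a shared direction. With CIC::DUX4, 68 of the 89 (76.4%) were highest in the replicate 1 library, where 36.0% of all genes tested were, and with CIC::NUTM1, 48 were highest in replicate 1, 31 in replicate 3 and 10 in replicate 2. The median log2 difference of CIC::DUX4 replicate 1 from the mean of the other 2 libraries was 0.59 over the members, 0.30 over 30 CIC and ERK target genes and 0.01 over all genes tested. For CIC::NUTM1 replicate 2 it was -0.57, -0.44 and 0.02. The former library was thus high, and the latter low, for the target genes as well. CIC::DUX4 replicate 1 was also high for the epithelial markers given above and for the 10 markers of endothelium and fibroblasts, which summed to 17.7, 8.66 and 9.60 CPM in the 3 CIC::DUX4 libraries. KDR, a VEGF receptor gene of that list, had 6.94, 1.22 and 1.36 CPM there. The summed level of the target genes was 3797, 2555 and 3252 CPM with CIC::NUTM1 and 3904, 3062 and 3318 CPM with CIC::DUX4, against 683 to 723 CPM with empty vector. The median coefficient of variation of a member over 3 libraries was 33.8% with CIC::NUTM1 and 36.4% with CIC::DUX4, where counting error alone gives 22% and 21.8%.

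**Figure D5:**
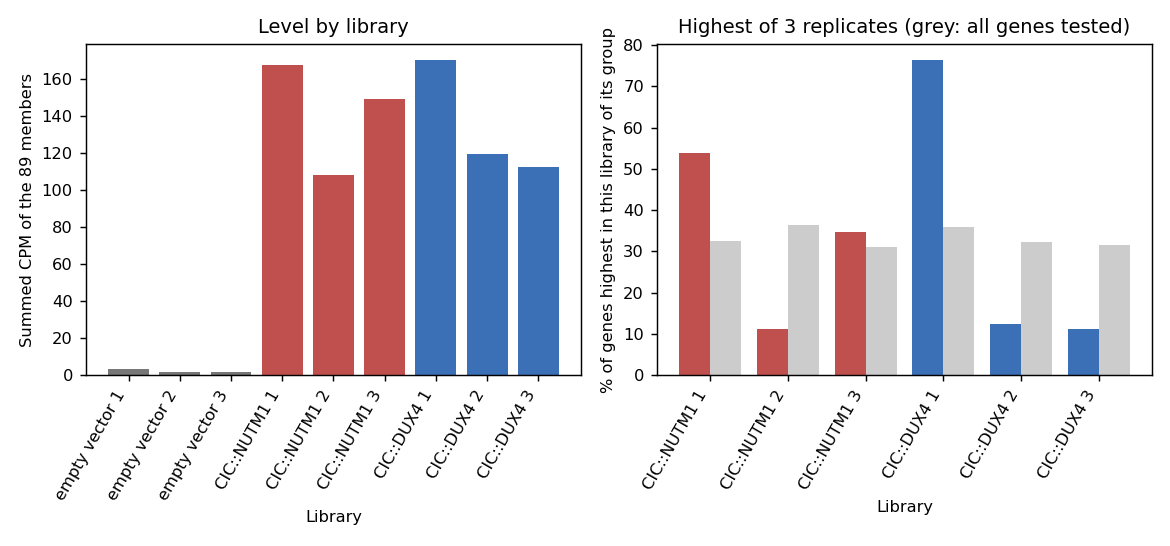
Summed CPM of the 89 members in each of the 9 libraries (left), and percentage of members (coloured) and of all genes tested (grey) whose highest level within their group of 3 lay in the given library (right). CIC::DUX4 replicate 1 holds the highest value for 76.4% of the members against 36.0% of all genes, and CIC::NUTM1 replicate 2 and CIC::DUX4 replicates 2 and 3 for fewer members than genes.

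The list of CIC and ERK target genes was read beside the members. None of its 30 genes is a member, since SPRY4, its 1 gene silent with empty vector, was left out by symbol. Of the 30, 24 were called higher with CIC::NUTM1 and 22 with CIC::DUX4 (edgeR), where 11.5% and 6.96% of all genes tested were. Their median log2 fold changes were 2.45 and 1.96, against -0.0009 and -0.0015 over all genes. SPRY4, ETV4, ETV5, DUSP6, SHC3 and SHC4 passed the filter on low counts only with the fusion libraries. They are included in these counts and medians, so nothing is read from the counts and medians. The list was chosen with earlier results of these data known. ETV4 had 0.514 ± 0.1000 CPM (empty vector), 202 ± 47.1 CPM (CIC::NUTM1) and 195 ± 35.5 CPM (CIC::DUX4). For ETV5 the levels were 0.820 ± 0.360, 265 ± 60.3 and 249.6 ± 44.6 CPM in the same order (SD, n = 3). The summed level of the 89 members, 142 ± 30.4 CPM (CIC::NUTM1) and 134 ± 31.5 CPM (CIC::DUX4), was below the mean of either gene, without correction for length.

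Between the fusions, no member of the 88 tested was called different by edgeR, where 6.61% of all genes tested were, the lowest adjusted p being 0.0565. At an unadjusted p under 0.05 (edgeR) there were 9 of the 88 members, against 3197 of all 17576 genes tested. DESeq2 called 1 (AGR2), and edgeR with no filter called 1 (CES1P2). The libraries of the 2 fusions did not overlap for 13 members, where 23.4% of the genes tested showed such a gap. Higher with CIC::NUTM1 were 9 members, where 9.79% of the genes tested were, namely AGR2, SCEL, TRDN, RNLS, ENSG00000224945, ENSG00000285684, SLC2A5, MYBPC2 and PIWIL2. Higher with CIC::DUX4 were 4, where 13.6% of the genes tested were, namely CES1P2, MYO18B, PAEPP1 and PRAMEF20. The ratio window set these differences to less than 2 times, so the counts describe the choice, and a missing call does not show that the fusions act alike on a member. The percentage of all genes is the sum of 874 genes called in favour of CIC::NUTM1 (4.97%) and 288 in favour of CIC::DUX4 (1.64%). They became 516 and 174 without CIC::NUTM1 replicate 3, and the latter was 156 without CIC::DUX4 replicate 1 and 181 without CIC::DUX4 replicate 2.

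Genes were also chosen anew, by the same limits, without replicate 1, 2 or 3 of every group and read in the 3 libraries left out. The shares of all genes that meet these limits in the left-out libraries were not computed, so the percentages only describe the chosen genes. Without replicate 1, 79 genes were chosen, 62 of them members. Of the 79, 89.9% had 3 or fewer counts in the left-out empty vector library. Of the 79, 89.9% and 92.4% reached 0.5 CPM in the left-out CIC::NUTM1 and CIC::DUX4 libraries, with 60 genes (75.9%) meeting all 3 conditions and 48 also the ratio window. Without replicate 2, 128 genes were chosen, 77 of them members, and 46 (35.9%) met all 3 conditions, or 38 with the ratio window. Without replicate 3, 109 were chosen, 73 of them members, and 49 (45.0%) met all 3, or 36 with the ratio window. The replicate 2 libraries gave 61.7% with CIC::NUTM1 and 64.1% with CIC::DUX4, and the replicate 3 libraries 83.5% and 65.1%. The median ratio of CIC::NUTM1 to CIC::DUX4 in the left-out libraries was 1.01, 0.818 and 1.48. Silence and expression in a single library are limited by its depth, since 10 counts correspond to 0.297 to 0.589 CPM.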

How the data were processed

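Raw counts per Ensembl gene were deposited by the authors for 9 polyA-selected libraries, with 3 per group. The authors also deposited log2 CPM for 15811 genes, used here only to count the 74 members it lists. The submitters' processing notes name STAR 2.7.10b, R 4.2.2, edgeR 3.40.2 and GRCh38. The counting program, the annotation and the use of strand are not given in the sources used here. Reads that overlap 2 genes or near-identical copies could therefore have been split in ways that change low counts. Symbols were matched for 62622 of 62700 gene IDs, and 14 members are named by Ensembl ID.

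CPM were computed from column totals. The tests used edgeR 4.0.16 (R 4.3.3) on genes that filterByExpr kept (TMM scaling, robust quasi-likelihood F test, 1 mean per group over all 9 libraries), with Benjamini-Hochberg adjustment over 17576 genes and calls at an adjusted p under 0.05. Replicates were transfected on separate days per the labels, and p-values measure the spread between these transfections of 1 cell line. Gene types, exon lengths, overlaps and neighbours came from GENCODE 29 and promoter windows from RefSeq (GRCh38.p14). Figures were drawn with matplotlib 3.10.9.

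The members, gene lists and tests were chosen with earlier results of these data known. Genes named by rule were the 30 members with the highest mean, members in a marker list, the 3 genes on either side of each threshold, octamer members among the 60 highest, and the CIC and ERK target list. Other members are named to account for each role, which was after their values were seen. Alternatives were other limits in the choice of members, DESeq2 1.42.0 and its size factors, no filter, a replicate block, each library left out in turn and a shorter promoter window. Values of some genes are not reported here.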

Additional observations from a re-analysis of the deposited data

How the results depend on the processing

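The choice of members depended on its limits: the 89 members became 36 with 0 counts required in each empty vector library, 202 with up to 10 counts allowed, 34 at a mean of at least 1 CPM and 223 at a mean of at least 0.25 CPM, and they were 89 with TMM-scaled CPM (88 shared) and 61 with a narrower ratio window. Leaving out 1 library at a time gave 68 (without CIC::DUX4 replicate 1, 63 of them shared) to 111 members. Members called higher numbered 85 to 88 for CIC::NUTM1 and 73 to 87 for CIC::DUX4 when 1 library was left out, the lowest for CIC::DUX4 being without its replicate 1. Between the fusions, where edgeR called 0, leaving out 1 library gave 0 to 1 (AGR2), no filter 1 (CES1P2) and DESeq2 1 (AGR2). Among log2 fold changes of the 37 members named by rule and tested, under alternatives, 733 kept direction and call and 7 kept direction only, all for PIWIL2 and ITGAM with CIC::DUX4 and 1 library left out. Calls with CIC::DUX4 were also lost with 1 library left out for members outside that rule, among them BRS3, CALB1, DOCK10, GBP1, RPSAP52 and TSPAN8. The octamer count of 5 became 2 with the 250 bases before the start only.

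Whether a replicate number marks the same transfection day in all groups is not given in the labels. Same-numbered libraries of different groups correlated at -0.0311 to 0.0755 and differently numbered ones at -0.109 to 0.0687. These values show no pairing, but they cannot decide whether a day was shared. With the replicate number as a block, 87 members were called with CIC::NUTM1, 86 with CIC::DUX4 and 2 between the fusions (AGR2 and CES1P2).

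Over all genes, those called lower with CIC::NUTM1 fell from 673 to between 278 and 450 without CIC::NUTM1 replicate 1 or 3 or any 1 empty vector library. They rose to 977 without CIC::NUTM1 replicate 2, 920 with no filter and 861 with DESeq2. Those called lower with CIC::DUX4 were 224, 380 with no filter and 60 to 229 with 1 library left out, and those called higher 1224, or 805 without CIC::DUX4 replicate 1. The cause was not tested. Depth limits single values: 10 counts correspond to 0.297 to 0.589 CPM, so a member near 0.5 CPM rests on about 10 counts in a library.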
